A study of Rattus norvegicus with 20 samples.

Results

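Secreted frizzled-related proteins and carboxypeptidase Z are extracellular proteins that carry a cysteine-rich domain like that of the Frizzled receptors. They were followed in mesenteric arteries of ovariectomised rats given an estrogen or a selective estrogen receptor modulator (SERM). The genes listed were Sfrp4, Cpz, Sfrp1, Sfrp2 and Frzb, and every probe whose single gene symbol in the array's probe annotation was one of these 5 was taken. That gave 4 genes with 1 probe each, of 12199 genes and 16865 probes with 1 symbol, and all 4 probes passed the filter on dim probes. Sfrp1 is not analysed here. Sfrp4 and Cpz were listed because their level differed from vehicle under ethinyl estradiol and equilin. Their values in those comparisons are therefore given as a description with no test.

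Female Sprague Dawley rats were ovariectomised before puberty, at 4 weeks of age, and recovered for 2 weeks. They were then gavaged daily for 3 weeks, and arteries were taken at 9 weeks of age, so that vehicle rats had also lost their ovaries and with them that source of estrogen. The groups were vehicle, which was 20% 2-hydroxypropyl-β-cyclodextrin (4 arrays), ethinyl estradiol (3 arrays), estradiol benzoate (3 arrays) and equilin (3 arrays), each estrogen at 0.15 mg/kg, and tamoxifen (4 arrays) and raloxifene (3 arrays), each at 3 mg/kg. The question of the study was how these estrogens and SERMs, drugs whose action on estrogen receptors can be agonist in one tissue and antagonist in another, change gene expression in the artery. RNA of single arterial trees was hybridised to 1-colour CodeLink arrays, 20 in all. How precise each value can be is set by these few arrays.

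Wnt proteins are secreted signals that bind Frizzled receptors together with LRP co-receptors, and through them stabilise β-catenin or act on cell shape and movement. Secreted frizzled-related proteins bind Wnt proteins outside the cell and are mostly known as antagonists, though some can also favour signalling. Cpz is a secreted metallocarboxypeptidase that removes basic residues from the carboxyl end of peptides, and its frizzled-like domain binds Wnt proteins. In vessels, Wnt signalling is studied in smooth muscle growth, fibroblast activation and calcification.

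RefSeq promoter windows of the GRCr8 assembly were matched for Sfrp2 and Frzb. Windows for Sfrp4 and Cpz were not matched. Both are shown because no other gene of the list had a matched window. Each holds the 250 bases before the start site, 5′ to 3′ on the gene's strand, with a match to GGTCA, the core repeated in an estrogen response element, in capitals.
Sfrp2: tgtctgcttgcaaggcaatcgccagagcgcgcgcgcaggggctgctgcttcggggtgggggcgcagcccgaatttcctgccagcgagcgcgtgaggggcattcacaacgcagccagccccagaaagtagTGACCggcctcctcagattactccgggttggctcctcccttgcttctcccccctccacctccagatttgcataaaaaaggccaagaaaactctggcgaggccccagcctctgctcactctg
Frzb: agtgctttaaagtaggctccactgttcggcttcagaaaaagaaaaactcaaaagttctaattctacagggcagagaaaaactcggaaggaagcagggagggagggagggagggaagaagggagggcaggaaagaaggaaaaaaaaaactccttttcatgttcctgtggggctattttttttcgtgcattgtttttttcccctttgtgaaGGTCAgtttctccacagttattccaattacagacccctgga
The Sfrp2 window lies at chr2:171387286-171387535 on the plus strand, and the Frzb window at chr3:85772097-85772346 on the minus strand. Each held 1 match to GGTCA, searched on both strands. The match began at position -121 from the start site in Sfrp2, where it is read as TGACC, and at position -41 in Frzb. Neither window held the full palindrome, which is GGTCA followed after any 3 bases by TGACC. Of 33469 such windows in the table, 35.4% held the core and 0.024% the palindrome. A core is thus common in windows of this length and is given as a description only.

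Levels below are log2 intensities after an offset of 0.103 was added, centred on the median of all probes on each array, so that 0 is the level of the median probe. Differences are on the same log2 scale with their standard error (SE), and the offset understates the change of a dim gene. Each adjusted p comes from limma over all 24562 tested probes and is Benjamini-Hochberg adjusted. A gene is said to have fallen or risen where that value was under 0.05. The medians of the deposited intensities split the arrays into 2 sets, for which the labels give no name. Set A (10 arrays, medians 1.0408 to 1.0612) held vehicle array 1 and every estrogen array, and set B (10 arrays, medians 1.0007 to 1.015) held vehicle arrays 2 to 4 and every SERM array. Raloxifene array 3 was the least like the others: its correlation with them averaged 0.889, where the remaining 19 arrays averaged 0.944 to 0.97. In the ethinyl estradiol group, array 3 had a summed intensity of 751.3 over 6 pancreatic acinar probes, the highest of all arrays. Calls of the 4 genes that rest on either array are given with and without it. Cell type marker sums and counts are given with every array kept. Of the defining smooth muscle markers, the probes of Myh11 and Tagln lay at percentile 99.7 or higher of all probes and the Acta2 probe at 46.6. Of the endothelial markers, both Vwf probes lay at 96.5 or higher, and the 2 Pecam1 probes at 97.6 and 59.4. The adipocyte genes Adipoq and Cidec were also among the brightest, although the arteries had been freed of fat.

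**Figure D1:**
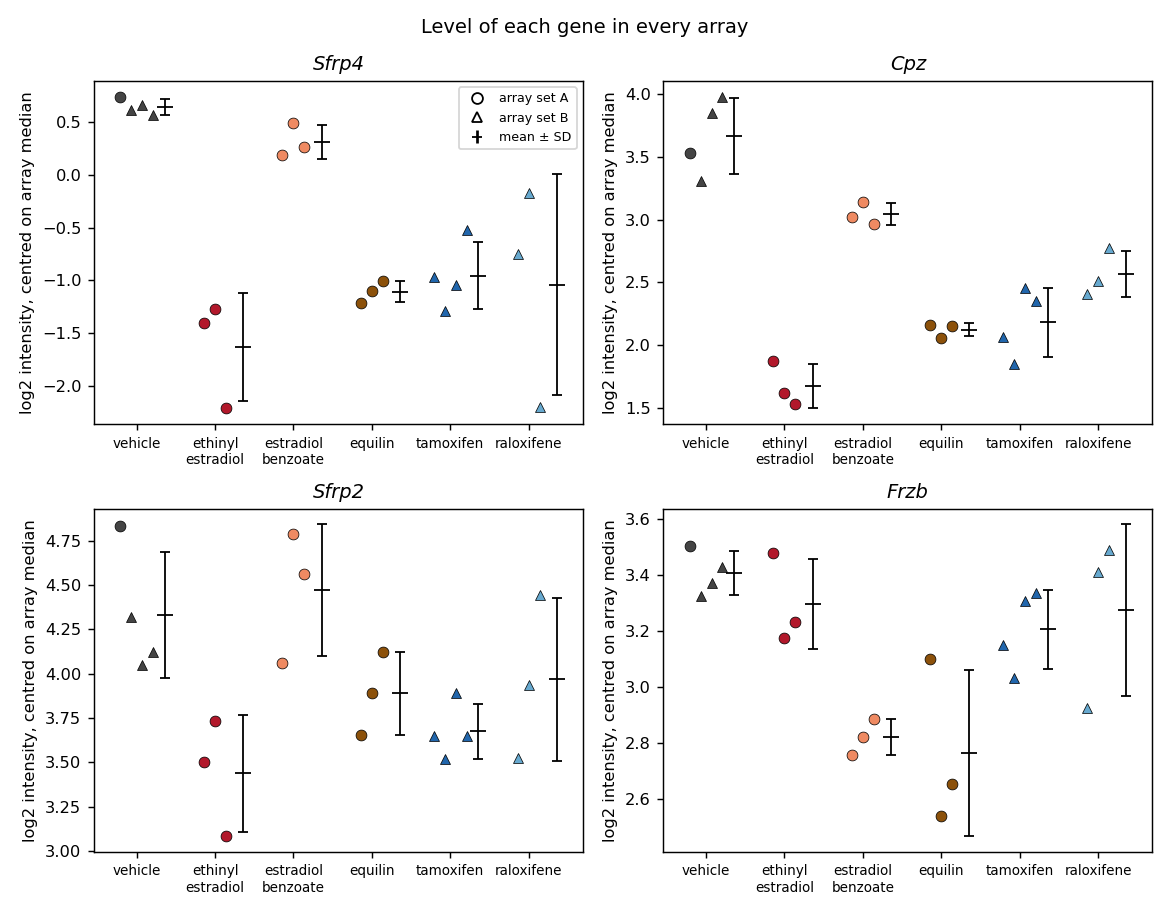
Log2 intensity of each gene in every array, centred on the array's median, by treatment group. Points are arrays (circles set A, triangles set B), and bars are the group mean ± SD. Sfrp4 and Cpz stand high in the vehicle and estradiol benzoate arrays and lower in the other 4 groups, and Frzb is lowest under estradiol benzoate and equilin.

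Sfrp4, a secreted Wnt antagonist also known from bone and connective tissue, was low in all ethinyl estradiol and equilin arrays. Its deposited intensity is linear, after the authors' background subtraction and scaling of each array, with array medians from 1.0007 to 1.0612. It was 1.82, 1.59, 1.66 and 1.54 in the vehicle arrays and 0.33, 0.37 and 0.14 in the ethinyl estradiol arrays. The lowest vehicle array was thus above every ethinyl estradiol array. Intensities were 0.39, 0.44 and 0.47 under equilin and 1.21, 1.52 and 1.28 under estradiol benzoate. The estradiol benzoate arrays sat just under the vehicle arrays and far above those of the other estrogens. Under tamoxifen the intensities were 0.47, 0.35, 0.44 and 0.67, and under raloxifene 0.56, 0.89 and 0.14. Every SERM array was below every vehicle array, and the raloxifene arrays were the most scattered. The probe is a dim one, with its mean at percentile 42.2 of all probes.

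In log2 terms, Sfrp4 averaged 0.65 ± 0.08 (SD, n = 4) with vehicle and -1.63 ± 0.51 (SD, n = 3) with ethinyl estradiol. The difference of -2.28 (SE 0.34) is 4.85-fold lower. With equilin the mean was -1.11 ± 0.10 (SD, n = 3), a difference of -1.75 (SE 0.34) or 3.37-fold lower. These are the values that chose the gene. Without ethinyl estradiol array 3, where Sfrp4 was lowest, the first was -1.98. The offset sets their size: with an offset 5 times larger they were -1.48 and -1.22, both smaller than those of Cpz at that offset (-1.87 and -1.46).

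Estradiol benzoate left Sfrp4 at 0.31 ± 0.16 (SD, n = 3), and its difference of -0.33 (SE 0.34) from vehicle did not pass, with limma's adjusted p = 0.879 and a 95% confidence interval (CI) of -1.04 to 0.37. Tamoxifen gave a mean of -0.96 ± 0.32 (SD, n = 4), and Sfrp4 fell by 1.60 (SE 0.31, limma adjusted p = 0.0354), or 3.04-fold. Raloxifene gave -1.04 ± 1.05 (SD, n = 3), and Sfrp4 fell by 1.69 (SE 0.34, limma adjusted p = 0.0323). Without raloxifene array 3, where Sfrp4 was lowest, the raloxifene difference was -1.11 with limma's adjusted p = 0.0895. The raloxifene call was also lost without vehicle array 1 (-1.65, limma adjusted p = 0.0787), 2 (-1.70, limma adjusted p = 0.076) or 3 (-1.68, limma adjusted p = 0.064). These comparisons share their vehicle arrays with those that chose the gene, so they are not independent of the choice.

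The tamoxifen call lay close to the threshold. Over 28 alternatives limma's adjusted p ran from 0.000913, without raloxifene array 3 in the shared estimate of spread, to 0.159. It stayed under 0.05 in 11 of them. It rose above 0.05 when any 1 vehicle, tamoxifen, estradiol benzoate or equilin array was left out (0.0504 to 0.159), while the difference stayed between -1.75 and -1.49. A block for the array set compares the estrogens with vehicle array 1 alone, on the assumption that this array varies like the others. With it the differences were -2.37 for ethinyl estradiol and -1.85 for equilin. For tamoxifen and raloxifene they were -1.57 (limma adjusted p = 0.117) and -1.65 (limma adjusted p = 0.0777). The level in vehicle array 1 was 0.74, against 0.57 to 0.66 in the vehicle arrays of set B.

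Cpz, the carboxypeptidase, showed a like pattern and was measured by a bright probe, at percentile 80.6. Its intensity was 13.17, 10.83, 15.91 and 17.42 in the vehicle arrays and 4.14, 3.42 and 3.21 with ethinyl estradiol. No ethinyl estradiol array came near the vehicle arrays. With equilin it was 5.01, 4.76 and 5.02, and with estradiol benzoate 9.32, 10.06 and 8.88. The estradiol benzoate arrays were again between vehicle and the other estrogens, without overlap on either side. With tamoxifen the intensities were 4.55, 3.93, 6.02 and 5.62, and with raloxifene 5.80, 6.26 and 7.48. All 7 SERM arrays were below the lowest vehicle array.

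The mean Cpz level was 3.67 ± 0.30 (SD, n = 4) with vehicle. It was 1.68 ± 0.18 (SD, n = 3) with ethinyl estradiol, a difference of -1.99 (SE 0.18) or 3.97-fold lower, and of -1.92 without array 3 of that group. With equilin it was 2.12 ± 0.05 (SD, n = 3), a difference of -1.54 (SE 0.18) or 2.91-fold lower. Both are values that chose the gene.

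Cpz fell by 1.48 (SE 0.17, limma adjusted p = 0.00044) with tamoxifen, to 2.18 ± 0.28 (SD, n = 4), or 2.80-fold. It fell by 1.10 (SE 0.18, limma adjusted p = 0.0192) with raloxifene, to 2.57 ± 0.19 (SD, n = 3), or 2.14-fold. Without raloxifene array 3 the raloxifene difference was -1.20 (limma adjusted p = 0.0276). With estradiol benzoate the mean was 3.04 ± 0.09 (SD, n = 3), and the difference of -0.62 (SE 0.18, CI -1.01 to -0.24) did not pass, with limma's adjusted p = 0.186. The SERM and estradiol benzoate comparisons again share the vehicle arrays that chose the gene.

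The tamoxifen call for Cpz stayed under 0.05 in all 28 alternatives, with limma's adjusted p between 0.000213 and 0.0354. The raloxifene call did so in 25 of 28, and was lost when only the vehicle and raloxifene arrays were fitted (limma adjusted p = 0.39) and when vehicle array 1 (-1.14, limma adjusted p = 0.0509) or 3 (-1.04, limma adjusted p = 0.0551) was left out. Under the array set block the differences were -1.53 for tamoxifen (limma adjusted p = 0.0015) and -1.14 for raloxifene (limma adjusted p = 0.048). With that block the estrogen differences were -1.86 for ethinyl estradiol and -1.41 for equilin. Vehicle array 1 was at 3.53, inside the 3.31 to 3.98 of the set B vehicle arrays.

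Sfrp2, a Wnt-binding protein of the same family that fibroblasts secrete in many tissues, was measured by a bright probe and its groups overlapped more. Intensities were 32.68, 21.95, 18.29 and 19.30 with vehicle and 12.99, 15.16 and 9.60 with ethinyl estradiol. All 3 ethinyl estradiol arrays were below the lowest vehicle array. With estradiol benzoate they were 19.26, 31.65 and 27.12, and with equilin 14.31, 17.15 and 20.03. The estradiol benzoate arrays lay inside the range of vehicle, as did the highest equilin array. With tamoxifen the intensities were 13.86, 12.67, 16.41 and 13.91, all below vehicle, and with raloxifene 12.68, 16.93 and 24.05.

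No Sfrp2 difference from vehicle passed the test. The ethinyl estradiol mean of 3.44 ± 0.33 (SD, n = 3) differed from the vehicle mean of 4.33 ± 0.35 (SD, n = 4) by -0.89 (SE 0.25, CI -1.41 to -0.38, limma adjusted p = 0.0847). With raloxifene array 3 left out of the shared estimate of spread, the same difference had a limma adjusted p of 0.0377, and without ethinyl estradiol array 3 it was -0.71 (limma adjusted p = 0.25). The tamoxifen difference was -0.66 (SE 0.23, limma adjusted p = 0.388) and the equilin difference -0.44 (SE 0.25, limma adjusted p = 0.303). For raloxifene it was -0.36 (SE 0.25, limma adjusted p = 0.337), with -0.60 (limma adjusted p = 0.323) without raloxifene array 3 and -0.14 without array 1, and for estradiol benzoate 0.14 (SE 0.25, limma adjusted p = 0.929). Vehicle array 1 was the highest vehicle array at 4.83, against 4.05 to 4.32 in set B. With the array set as a block, the ethinyl estradiol difference was -1.39 (limma adjusted p = 0.109), and the estradiol benzoate difference turned to -0.36.

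Frzb, also called sFRP3 and first described in cartilage, had another order. Its intensities were 12.93, 10.95, 11.41 and 11.87 with vehicle and 12.80, 10.25 and 10.65 with ethinyl estradiol, which overlapped. With estradiol benzoate they were 7.73, 8.02 and 8.39, and with equilin 9.72, 6.66 and 7.16. All 6 arrays of these estrogens were below the lowest vehicle array. The SERM arrays, at 9.79, 9.02, 10.92 and 11.19 with tamoxifen and 8.32, 11.72 and 12.38 with raloxifene, overlapped those of vehicle.

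Frzb fell by 0.64 (SE 0.17, limma adjusted p = 0.0422) with equilin, to 2.76 ± 0.30 (SD, n = 3) from 3.41 ± 0.08 (SD, n = 4) with vehicle. Estradiol benzoate gave 2.82 ± 0.06 (SD, n = 3), and its difference of -0.59 (SE 0.17, CI -0.94 to -0.23) had a limma adjusted p of 0.169. The differences for ethinyl estradiol, tamoxifen and raloxifene were -0.11, -0.20 and -0.13, with limma's adjusted p from 0.629 to 0.831. The equilin call depended on the scaling. The median of all tested probes was -0.17 for equilin and -0.12 for estradiol benzoate against vehicle, and relative to it the Frzb differences were -0.47 and -0.47. With quantile normalization, where those medians were -0.01 and 0, the equilin difference was -0.34 (limma adjusted p = 0.336) and the estradiol benzoate difference -0.38. The call was kept in 12 of 28 alternatives and was lost with the array set as a block (-0.74, limma adjusted p = 0.358). It was also lost when vehicle array 1, 3 or 4, equilin array 2 or 3, tamoxifen array 1 or 4, or any estradiol benzoate array was left out, with limma's adjusted p from 0.0538 to 0.222 and the difference from -0.65 to -0.53. The summed intensity of 14 smooth muscle probes (9 of 10 listed genes) was also low with estradiol benzoate and equilin. It was 703.1 to 829.5 and 747.6 to 828.2, against 1006.3 to 1117.1 with vehicle. In the other groups, where Frzb overlapped vehicle, it was 746.7 to 982.6 with tamoxifen, 1129.1 to 1220.4 with ethinyl estradiol and 1018.1 to 1309.0 with raloxifene. The fibroblast sum, given below, was also lower with estradiol benzoate and equilin than with vehicle. The part of either signal in the Frzb result was not tested.

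Set against all tested probes, 2 of the 4 genes were called with tamoxifen, where 0.224% of all probes were, and 2 of 4 with raloxifene, where 2.04% were. Both times these were Sfrp4 and Cpz, which were listed for low levels against the same vehicle arrays. The counts are therefore not independent of that choice. Neither Sfrp2 nor Frzb was called with either SERM. With estradiol benzoate none of the 4 was called by limma (2 at an unadjusted p under 0.05, Cpz and Frzb), against 0.7% of all probes. Of the pair not chosen on these comparisons, Sfrp2 and Frzb, none was called by limma with ethinyl estradiol (Sfrp2 at an unadjusted p under 0.05), against 1.2% of all probes, and 1 was with equilin, against 3.69%.

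**Figure D2:**
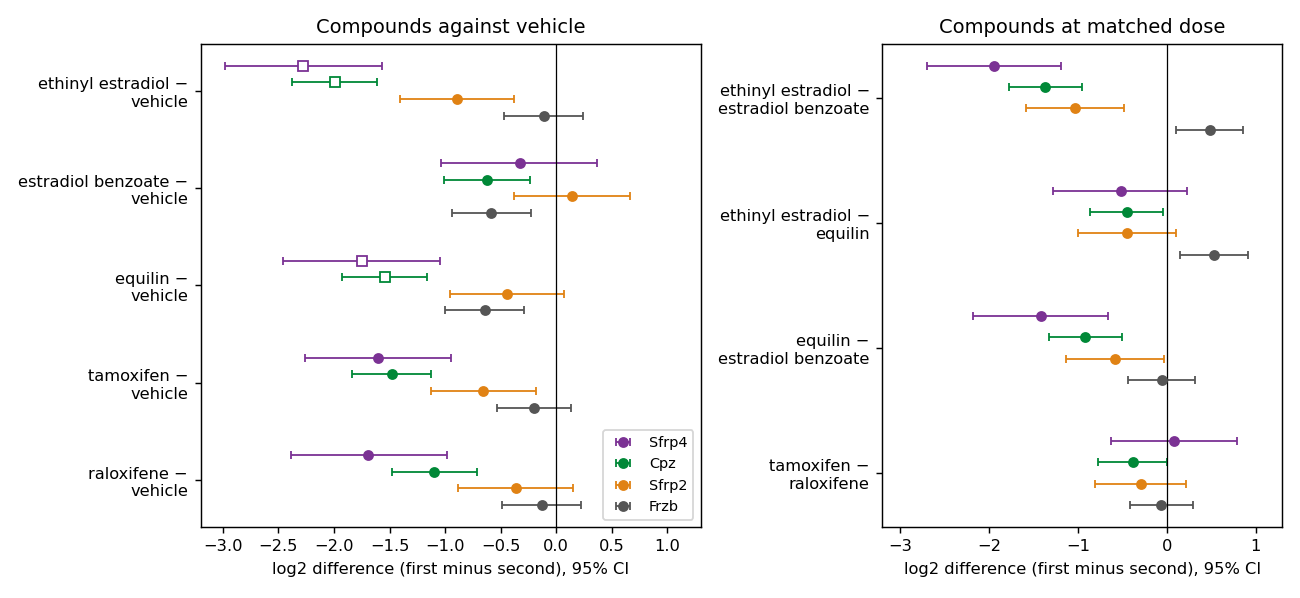
Log2 difference of each gene between groups, first minus second, with its 95% confidence interval from limma, for the 5 comparisons with vehicle (left) and the 4 at matched dose (right). Open squares are the values that chose Sfrp4 and Cpz. Sfrp4 and Cpz lie left of 0 in every comparison with vehicle, and the ethinyl estradiol minus estradiol benzoate intervals of both exclude 0.

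The order of the group means can be read side by side, although the estrogens and SERMs were given at different doses and are not compared with each other. Sfrp4 ran from vehicle through estradiol benzoate, tamoxifen, raloxifene and equilin to ethinyl estradiol. Among neighbours in this order, tamoxifen overlapped raloxifene, and raloxifene overlapped equilin. Groups further apart could also overlap: raloxifene array 3 (-2.20) lay inside the ethinyl estradiol range of -2.22 to -1.27. Cpz ran from vehicle through estradiol benzoate, raloxifene, tamoxifen and equilin to ethinyl estradiol. Its neighbours with overlap were the SERMs, and tamoxifen and equilin. Further apart, tamoxifen array 2 (1.85) lay below ethinyl estradiol array 1 (1.87). For Sfrp2 every pair of neighbours in the order overlapped, from estradiol benzoate at the top (4.47) to ethinyl estradiol at the bottom (3.44). For Frzb the only neighbours without overlap were tamoxifen (3.21) and estradiol benzoate (2.82).

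At matched dose 4 pairs of compounds were compared. Ethinyl estradiol is estradiol with an ethynyl group on the D ring, estradiol benzoate is its benzoic acid ester, and equilin is an equine estrogen with an extra double bond in the B ring. Tamoxifen is a triphenylethylene and raloxifene a benzothiophene. All estrogen arrays lay in set A and all SERM arrays in set B, so these comparisons do not cross the sets. Those of the estrogens share arrays with the comparisons that chose Sfrp4 and Cpz.

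Ethinyl estradiol gave lower Sfrp4 than estradiol benzoate by -1.94 (SE 0.36, CI -2.70 to -1.19, limma adjusted p = 0.0221), and lower Cpz by -1.37 (SE 0.20, CI -1.78 to -0.96, limma adjusted p = 0.00357). These are 3.85-fold and 2.58-fold, and 0.281% of all probes were called. Without raloxifene array 3 in the shared estimate of spread, the limma adjusted p for Sfrp4 was 0.000716. The Sfrp4 call missed the threshold with quantile normalization (-1.98, limma adjusted p = 0.058). It was also lost, with the difference from -2.06 to -1.65 and limma's adjusted p from 0.0601 to 0.114, when ethinyl estradiol array 1 or 3 or any estradiol benzoate array was left out. Without ethinyl estradiol array 3 the Cpz difference was -1.3 (limma adjusted p = 0.0186). Neither Sfrp4 nor Cpz was called when only these groups were fitted (limma adjusted p = 0.0809 for Cpz). Sfrp2 was lower by -1.03 (SE 0.26, CI -1.58 to -0.48) and Frzb higher by 0.48 (SE 0.18, CI 0.10 to 0.86), and neither passed, with limma's adjusted p = 0.131 and 0.39. Without raloxifene array 3 in the shared estimate of spread, the Sfrp2 difference had a limma adjusted p of 0.0426, and without ethinyl estradiol array 3 it was -0.85 (limma adjusted p = 0.343).

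Ethinyl estradiol and equilin differed in none of the 4 genes by limma (Cpz and Frzb at an unadjusted p under 0.05), where 0.175% of all probes were called. The Sfrp4 difference was -0.52 with an interval of -1.28 to 0.23, and the Cpz difference -0.45 with an interval of -0.86 to -0.04. For Sfrp2 it was -0.45 (CI -1 to 0.10) and for Frzb 0.53 (CI 0.15 to 0.91). Without ethinyl estradiol array 3 the differences were -0.23 for Sfrp4, -0.38 for Cpz, -0.27 for Sfrp2 and 0.56 for Frzb. The intervals leave room for differences of over 1 on the log2 scale in Sfrp4, so the compounds were not shown to act alike.

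Equilin gave lower values than estradiol benzoate for Sfrp4 by -1.42 (CI -2.18 to -0.66) and for Cpz by -0.92 (CI -1.33 to -0.51), without overlap between the arrays. Neither passed, with limma's adjusted p = 0.999 and 0.561. In that comparison limma called 0% of the probes, with 836 of 24562 at an unadjusted p under 0.05, among them Sfrp4, Cpz and Sfrp2. The Sfrp2 difference was -0.58 (CI -1.13 to -0.03) and the Frzb difference -0.06 (CI -0.44 to 0.32).

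Tamoxifen and raloxifene, which share no array with the comparisons that chose the genes, differed in none of the 4 genes by limma, and none was at an unadjusted p under 0.05. In all 0.00407% of the probes were called. The Sfrp4 difference, tamoxifen minus raloxifene, was 0.08 (CI -0.63 to 0.79), and turned to -0.50 without raloxifene array 3. For Cpz it was -0.38 (CI -0.77 to 0), for Sfrp2 -0.29 (CI -0.81 to 0.22) and for Frzb -0.07 (CI -0.42 to 0.29). Without raloxifene array 3 these were -0.28, -0.06 and 0.04, so that the sign for Frzb turned.

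Sfrp4 and Cpz had a Pearson correlation of 0.84 over the 20 arrays, 0.97 within set A and 0.72 within set B (10 arrays each). These arrays share the group differences that chose both genes. After each group's mean was taken out, the correlation was -0.04 over 20 arrays and 0.37 over the 19 without raloxifene array 3, which has the lowest Sfrp4 level of its group and the highest Cpz level. With Sfrp2, Sfrp4 correlated at 0.94 in set A and 0.18 in set B, and with Frzb at -0.12 and 0.21.

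**Figure D3:**
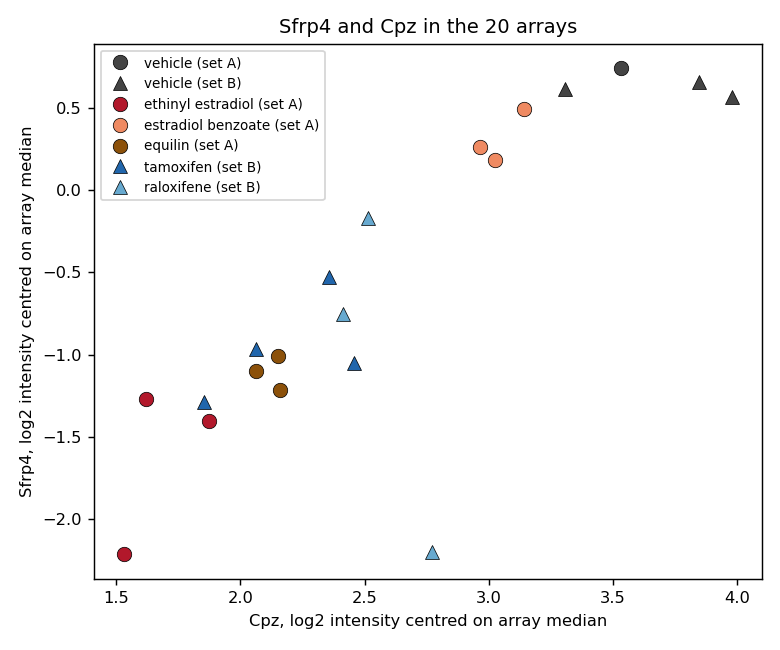
Sfrp4 level against Cpz level, both log2 intensity centred on the array median, 1 point per array. Vehicle and estradiol benzoate arrays lie at the upper right and ethinyl estradiol arrays at the lower left, while raloxifene array 3 lies far below the other raloxifene arrays in Sfrp4, at about the level of ethinyl estradiol array 3, and highest of its group in Cpz.

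By Pearson correlation over the 20 arrays, the genes most like Sfrp4 were Loxl1 (0.94), C1qtnf3 (0.93), Cenpt (0.91), Srpx2 (0.91) and Postn (0.90). Loxl1 is a lysyl oxidase-like enzyme of elastic fibres, Postn encodes periostin, a matricellular protein, and Cenpt is a centromere protein. Against vehicle, C1qtnf3 differed by -1.37 with ethinyl estradiol, -0.31 with estradiol benzoate, -0.99 with equilin, -1.31 with tamoxifen and -1.46 with raloxifene. Postn differed by -1.27, -0.20, -0.71, -1.11 and -1.06 in the same order. After group means were taken out, C1qtnf3 still correlated with Sfrp4 at 0.83, and at 0.58 without raloxifene array 3, and Loxl1 at 0.76 and 0.48.

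The genes most like Cpz were Serpinf1 (0.94), Col1a1 (0.93), Top2a (0.92), Cthrc1 (0.90) and Xpnpep2 (0.90). Serpinf1 encodes pigment epithelium-derived factor, Col1a1 a chain of type I collagen and Top2a a topoisomerase of dividing cells. Col1a1 differed from vehicle by -1.55 with ethinyl estradiol, -0.33 with estradiol benzoate, -1.47 with equilin, -1.43 with tamoxifen and -1.03 with raloxifene. Within groups, without raloxifene array 3, the correlations with Cpz were between 0.42 and 0.58 for these genes. All of these likeness values are descriptions over arrays that share the treatment groups.

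Fibroblast markers were in sum lower than with vehicle under every compound except raloxifene, where the arrays overlapped those of vehicle. Their summed intensity over 13 probes (10 of 13 listed genes, among them Pdgfra, Lum, Dcn and Col1a1) was 635.4 to 736.3 with vehicle and 587.6 to 632.0 with estradiol benzoate. It was 422.9 to 499.4 with ethinyl estradiol, 468.9 to 512.3 with equilin, 448.8 to 577.8 with tamoxifen and 521.8 to 699.8 with raloxifene. The median log2 difference of these probes from vehicle was -0.68, -0.16, -0.35, -0.30 and -0.53 for ethinyl estradiol, estradiol benzoate, equilin, tamoxifen and raloxifene, and 3, 0, 2, 2 and 2 of the 13 were called lower, where 1.2%, 0.7%, 3.69%, 0.224% and 2.04% of all probes were called in either direction. Over all tested probes the median difference was -0.05, -0.12, -0.17, -0.03 and -0.02 in the same order. In the summed intensity, bright probes such as Dcn (164.44 to 357.89 over the arrays) weigh most. Col1a1 is in that sum and among the genes most like Cpz, so the sum is not separate from that likeness. No defining fibroblast marker was at 0 in any array. In whole arteries, fewer cells of a type and less RNA per cell cannot be told apart, and the part of the fibroblast signal in the Sfrp4 and Cpz results was not tested.

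Other genes of the Wnt pathway were listed by role. The lists of ligands, receptors, other secreted modulators, intracellular components and target genes held 115 genes besides those above, of which 69 were tested by 97 probes. Limma called 1 probe lower with ethinyl estradiol, 1 lower with equilin and 1 lower with raloxifene, of 97 each, where 1.2%, 3.69% and 2.04% of all probes were called in either direction. It called none with estradiol benzoate or tamoxifen, and no probe higher. Their median differences from vehicle were -0.15, -0.08, -0.23, -0.05 and -0.01 for ethinyl estradiol, estradiol benzoate, equilin, tamoxifen and raloxifene, beside -0.05, -0.12, -0.17, -0.03 and -0.02 over all tested probes.

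Among ligands and their secretion factors, Wnt5b, a ligand that mostly acts without β-catenin, was the gene called with ethinyl estradiol and raloxifene. The called probe fell by 1.23 (SE 0.23, limma adjusted p = 0.02) with ethinyl estradiol and by 1.22 (SE 0.23, limma adjusted p = 0.0313) with raloxifene, from a vehicle mean of 0.96. The raloxifene difference was -0.89 (limma adjusted p = 0.0992) without raloxifene array 3, and the call was also lost without vehicle array 1, 2 or 3 (-1.25 to -1.18, limma adjusted p from 0.064 to 0.0749). The ethinyl estradiol call was lost without vehicle array 3 or ethinyl estradiol array 1 or 3 (-1.19 to -1.07, limma adjusted p from 0.0633 to 0.106). The array set block gave -1.14 (limma adjusted p = 0.292) with ethinyl estradiol and -1.25 (limma adjusted p = 0.0667) with raloxifene. With estradiol benzoate it differed by -0.17, with equilin by -0.82 and with tamoxifen by -0.77, none of which passed. The other Wnt5b probe is dimmer and was not called, with -0.70 (limma adjusted p = 0.395) for ethinyl estradiol and -0.56 (limma adjusted p = 0.31) for raloxifene.

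Wls, the carrier that takes Wnt proteins to the cell surface, had 1 probe called with equilin, while its other tested probe was not. The called probe fell by 0.77 (SE 0.21, limma adjusted p = 0.0477). That call was kept in 6 of 28 alternatives and the difference was -0.47 (limma adjusted p = 0.135) with quantile normalization and -0.51 (limma adjusted p = 0.85) with the array set block. The highest ligand-list probe with ethinyl estradiol was Porcn, the enzyme that acylates Wnt proteins, at 0.18 (limma adjusted p = 0.645).

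No receptor, secreted modulator, intracellular component or target gene was called against vehicle. With ethinyl estradiol the receptor list ranged from Vangl1 (-0.65) to Vangl2 (0.53), both of the planar cell polarity branch, and the secreted modulators from Dkk3 (-0.60) to Gpc4 (0.39). The intracellular list ran from Ctnnbip1, an inhibitor of β-catenin (-1.49, SE 0.39, limma adjusted p = 0.0716), to Tcf7l2, a transcription factor partner of β-catenin (0.68). Among target genes Ccnd1, cyclin D1, was lowest at -2.18 (SE 0.74, limma adjusted p = 0.18) and Ccn4 highest at 0.24. Of the 16 target probes 14 had a difference below 0 with ethinyl estradiol, with a median of -0.21, and none passed.

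Of other genes with a frizzled-like domain, 6 probes were tested. Against vehicle 1 was called with equilin, where 3.69% of all probes were called in either direction, and none with the other compounds. The called gene was Col18a1, a basement membrane collagen with an isoform that carries the domain. It fell by 1.01 (SE 0.19, limma adjusted p = 0.0138) with equilin, and the difference was -0.71 (limma adjusted p = 0.103) with quantile normalization. The call was also lost without vehicle array 3 or equilin array 2 or 3 (-1.11 to -1, limma adjusted p from 0.0519 to 0.0998), and with the array set block (-1.17, limma adjusted p = 0.081). Sfrp5, the nearest relative of Sfrp1 and Sfrp2 on the list, differed by -0.18 with ethinyl estradiol (limma adjusted p = 0.744), the lowest of these 6 probes, and Ror2, a Wnt receptor, was the highest at 0.30 (limma adjusted p = 0.611).

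Among other metallocarboxypeptidases 14 probes of 11 genes were tested, and 2 were called lower with ethinyl estradiol and 3 with equilin, where 1.2% and 3.69% of all probes were called in either direction. Cpxm1, a family member that lacks key residues for catalysis, fell by 1.58 (SE 0.23, limma adjusted p = 0.0023) with ethinyl estradiol and by 1.08 (limma adjusted p = 0.0163) with equilin. Cpa3, the mast cell carboxypeptidase, fell by 0.73 (SE 0.16, limma adjusted p = 0.0322) and 0.78 (limma adjusted p = 0.0146). Its ethinyl estradiol call was lost without ethinyl estradiol array 3 (-0.73, limma adjusted p = 0.077). Cpe, which processes peptide hormones, fell by 0.64 (SE 0.16, limma adjusted p = 0.0371) with equilin. The calls were kept in 26, 22, 20, 21 and 15 of 28 alternatives, in the order given. None of them, with array set in the model, was under 0.05 (Cpxm1 with ethinyl estradiol -1.22, limma adjusted p = 0.164). The highest probe with ethinyl estradiol was Cpb1, a pancreatic enzyme, at 0.37 (SE 1.49). It is one of the pancreatic acinar probes, whose summed intensity was 3.8, 3.2 and 751.3 in ethinyl estradiol arrays 1, 2 and 3. Its difference without array 3 is not given here. The summed intensity of 7 mast cell probes, Cpa3 among them, was at most 12.9 with ethinyl estradiol and 13.3 with equilin, and at least 15.1 with vehicle. Because Cpa3 is in that sum, the sum is no separate measure of mast cells. The part of the mast cell signal in the Cpa3 result was not tested.

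**Figure D4:**
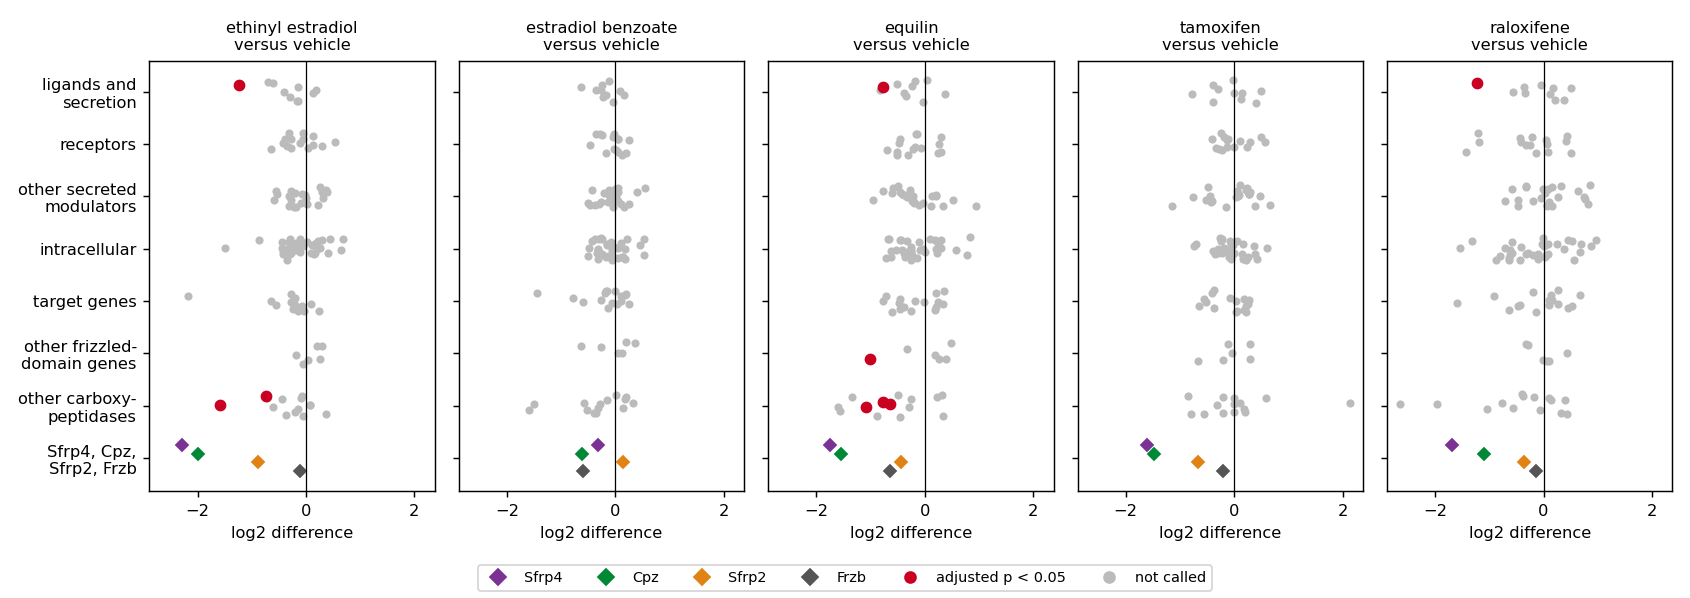
Log2 difference from vehicle of every tested probe of the Wnt, frizzled-domain and carboxypeptidase lists, 1 panel per compound with a common axis. Red points are called by limma and grey points are not, and diamonds are Sfrp4, Cpz, Sfrp2 and Frzb. Sfrp4 and Cpz lie at or beyond the lower end of most Wnt lists with ethinyl estradiol, equilin and tamoxifen, while few listed probes are red.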

How the data were processed

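Total RNA of mesenteric arteries was measured on 20 CodeLink arrays. The deposited intensity values are linear, with background subtracted and each array scaled by the authors before deposit, as the negative values and like medians in the table show. The submitters' design text names a GenePix 4000B scanner with GenePix Pro 5.0, CodeLink Expression Analysis, Acuity 3.1 and GeneSpring 7.1. The program that made the values is not given in these sources.

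Values at or below 0 were set to 0, 0.103 (0.1 times the median) was added, and log2 values were centred per array. Of 35129 probes, a probe was removed if it was missing on more than 1 array in any group or among the lowest 30% by mean, which left 24562. Group means over all 20 arrays were fitted with limma 3.58.1 in R 4.3.3 (eBayes with a trend), with Benjamini-Hochberg adjustment over all tested probes and calls at 0.05. The code was tested on simulated data. Alternatives were quantile normalization, other offsets, no dim filter, only probes with 1 symbol, only the groups compared, blocks for replicate number and array set, and leaving out each array. Replicates are single rats.

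The genes and lists were chosen with earlier results of these data known. The genes named are all members, called list genes, the highest and lowest list probe with ethinyl estradiol, and the 5 probes most correlated with Sfrp4 and with Cpz.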

Additional observations from a re-analysis of the deposited data

How the results depend on the processing

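Against vehicle, Sfrp4 and Cpz kept a difference below 0 in all 28 alternatives, and no called difference changed sign. Both genes were chosen for low levels with ethinyl estradiol and equilin, and the other comparisons share those vehicle arrays. Their kept sign is therefore not independent of that choice. The count of members called was 1 for equilin and became 0 with quantile normalization, no dim filter, only probes with 1 gene symbol, only the 2 groups compared, the replicate block and the array set block. For tamoxifen it was 2 and became 1 with quantile normalization, the smaller offset and the array set block. For raloxifene it was 2 and became 0 with only the 2 groups and 1 with the array set block. For ethinyl estradiol against estradiol benzoate it was 2 and became 1 with quantile normalization and 0 with only the 2 groups. The count of Wnt probes was 1 with ethinyl estradiol and became 2 with the larger offset and 0 with only the 2 groups and with the replicate block. With equilin it was 1 and became 0 with quantile normalization, no dim filter, only probes with 1 gene symbol and the replicate block, and 2 with only the 2 groups. With raloxifene it was 1 and became 2 with the larger offset, 0 with only the 2 groups, 3 with the replicate block and 0 with the array set block. Leaving out single arrays gave 0 to 1 members for ethinyl estradiol and equilin, 1 to 2 for tamoxifen, 0 to 2 for raloxifene and 1 to 3 for ethinyl estradiol against estradiol benzoate, with 3 without raloxifene array 3. It gave 0 to 2, 0 to 12, 0 to 1 and 0 to 14 Wnt probes for ethinyl estradiol, equilin, tamoxifen and raloxifene, with 12 for equilin without raloxifene array 3 and 14 for raloxifene without raloxifene array 2. Over all probes, calls without raloxifene array 3 were 743 against 295 for ethinyl estradiol, 3069 against 906 for equilin, 166 against 55 for tamoxifen, 14 against 502 for raloxifene and 259 against 69 for ethinyl estradiol against estradiol benzoate, and 301 against 43 for ethinyl estradiol against equilin. Without ethinyl estradiol array 3 those of ethinyl estradiol were 120 against vehicle, 40 against estradiol benzoate and 6 against equilin, and estradiol benzoate had 0 against vehicle. With only the 2 groups compared they were 9 for ethinyl estradiol, 130 for equilin, 34 for tamoxifen and 0 for raloxifene, for estradiol benzoate (against 172) and for ethinyl estradiol against either other estrogen. With the array set block they were 134, 159, 26 and 19 for ethinyl estradiol, equilin, tamoxifen and raloxifene, and 100 for estradiol benzoate. With the replicate block they were 62 for ethinyl estradiol, 365 for equilin and 0 for estradiol benzoate. With only probes with 1 gene symbol they were 152 for ethinyl estradiol, 0 for estradiol benzoate, 259 for equilin and 324 for raloxifene. They were 111 for raloxifene with no dim filter and 0 for estradiol benzoate with the smaller offset. The causes were not tested. Replicate numbers did not pair the arrays: over 46 pairs of the same number the correlation of deviations ran from -0.43 to 0.30, and 5 of 20 arrays correlated best with their own number. The Sfrp4 probe is dim, so the size of its change depends on the offset.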
